A study of Mus musculus with 15 samples.

Results

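The transcripts of 10 genes of the Bcl2 family were followed in embryonic mouse pancreas: the survival genes Bcl2, Bcl2l1 (Bcl-xL) and Mcl1, the effectors Bax and Bak1, and the BH3-only genes Bbc3 (Puma), Bcl2l11 (Bim), Pmaip1 (Noxa), Bid and Bad. They were picked by name, as the rows of the deposited count table whose Ensembl identifier carries 1 of these symbols in GENCODE mouse M21, and make up 10 of the 25292 genes in that table. The study asked what signalling through S1pr2, a receptor of sphingosine-1-phosphate, does in the developing pancreas, and survival of progenitor cells was among the processes it addressed. Poly(A) RNA of 15 libraries in 5 groups of 3 was counted, all with the strain label C57/Bl6J. The wt group was pancreas taken fresh at 14.5 dpc (days post coitum) from wildtype embryos, and the S1pr2 null group was fresh pancreas of the same stage carrying that genotype label, for which the methods of the study name the allele S1pr2tm1Rlp, a Neo cassette inserted in the first exon. The control, JTE and JTE + CTGF groups were explants of pancreas from embryos of 14.5 dpc kept for 2 d as serum-free air–liquid interface (ALI) cultures. Control explants had standard medium, JTE explants 15 μM of the S1pr2 antagonist JTE013, and JTE + CTGF explants 15 μM JTE013 together with 50 ng/ml of connective tissue growth factor (CTGF). Explants were dorsal buds and a library could pool up to 3 pancreata, so single embryos cannot be told apart, and 1 dose and 1 time of the antagonist were sampled.

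Bcl2 family proteins decide whether the outer mitochondrial membrane of a stressed cell stays intact. Bax and Bak1 can open pores in it, which frees cytochrome c and starts the caspase cascade, Bcl2, Bcl-xL and Mcl-1 hold them in check, and the BH3-only proteins bind the survival proteins or the effectors in answer to DNA damage, lost growth factors, stress of the endoplasmic reticulum or death receptors. Much of this control acts on the proteins through turnover, cleavage and phosphorylation, which counts of transcripts do not measure.

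Each library held 11402804 to 13828737 counted reads. In the libraries labelled S1pr2 null, S1pr2 itself had 1458, 1263 and 1354 normalised reads against 772, 762 and 762 in wt, a log2 difference of 0.83 ± 0.07 (edgeR adjusted p = 4.5e-07), so the transcript was higher and not lower under that label, and these libraries are called by their label throughout. Counts per gene do not show whether those reads come from the disrupted exon, so they do not check the loss of the receptor protein, which was not measured here. Ccn2, which encodes CTGF, averaged 285 ± 40.1 normalised reads in control explants and 78.2 ± 34.2 in JTE explants (SD, n = 3). Markers of epithelium, mesenchyme, endothelium, acinar and endocrine cells were present in every group, and summed endocrine markers were lower in JTE explants (637 to 924 CPM, reads scaled to library size) than in controls (4176 to 4738). Summed erythroid markers were 1125 to 1332 CPM in wt, 1211 to 1652 in the libraries labelled S1pr2 null, 13.8 to 35.6 in control, 18.1 to 48.9 in JTE and 106 to 180.0 in JTE + CTGF explants. In control against wt 8 of 8 erythroid markers were called lower, and in JTE + CTGF against JTE 5 of 8 were called higher. The part of erythroid cells in the values of the family was not tested. In bulk tissue, fewer cells of a type and less RNA per cell cannot be told apart, which holds for every value here.

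Per length of transcript, Bax and Mcl1 led the family in every group. In wt pancreas Bax stood at 79.4 ± 4.66 RPKM (reads scaled for exon length and library size, SD, n = 3) and Mcl1 at 52.9 ± 0.91, ahead of Bak1 at 22.7 ± 0.864, Bad at 16.9 ± 1.58 and Bcl2l1 at 14.5 ± 0.391. Bid, Bbc3, Bcl2 and Bcl2l11 lay between 7.08 ± 0.436 and 4.35 ± 0.146 RPKM, and the ranges of Bbc3 and Bcl2 overlapped. Pmaip1 came last at 0.324 ± 0.142 RPKM, from 8 to 18 reads a library. In control explants Bbc3 stood at 18.6 ± 1.27 RPKM, in rank 5 with a range that overlapped that of Bad above it, and Pmaip1 at 4.62 ± 0.591 RPKM overlapped Bcl2 in last place at 3.81 ± 0.338. In JTE + CTGF explants Bbc3 held rank 3 at 24.0 ± 0.429 RPKM, above Bak1 at 21.9 ± 0.80, and the ranges of these 2 genes did not overlap.

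The 3 survival genes supplied 34.8% ± 0.743 of the summed RPKM of the family in wt and 35.2% ± 1.08 in control explants. In JTE explants their share was 27.4% ± 1.24 and in JTE + CTGF explants 28.5% ± 0.418. The highest JTE or JTE + CTGF library lay at 28.8% and the lowest library of the other 3 groups at 34.0%, so these groups did not overlap. Most of the difference between control and JTE explants lay in Mcl1, with a mean share of 28.754% in control and 21.404% in JTE. Bcl2l1 had 5.042% in control and 4.575% in JTE, and Bcl2 1.402% and 1.374%. The share of Bax, the largest of the 10 genes, was 34.984% in control and 41.391% in JTE explants. Bax and Bak1 supplied 48.6% ± 0.807 in wt, 44.5% ± 1.05 in control and 50.6% ± 0.562 in JTE explants. The BH3-only genes had 16.5% ± 0.438 in wt, 20.3% ± 0.70 in control and 22.1% ± 0.692 in JTE explants. In the libraries labelled S1pr2 null they had 17.3% ± 0.946, with a range that overlapped wt. Under that label the survival genes supplied 36.1% ± 0.325 and the effectors 46.6% ± 1.13. The RPKM of Mcl1 was 8.83 times that of Bbc3 in wt, 4.21 times in control and 2.52 times in JTE explants. These shares are descriptions of the 10 genes and were not tested.

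**Figure D1:**
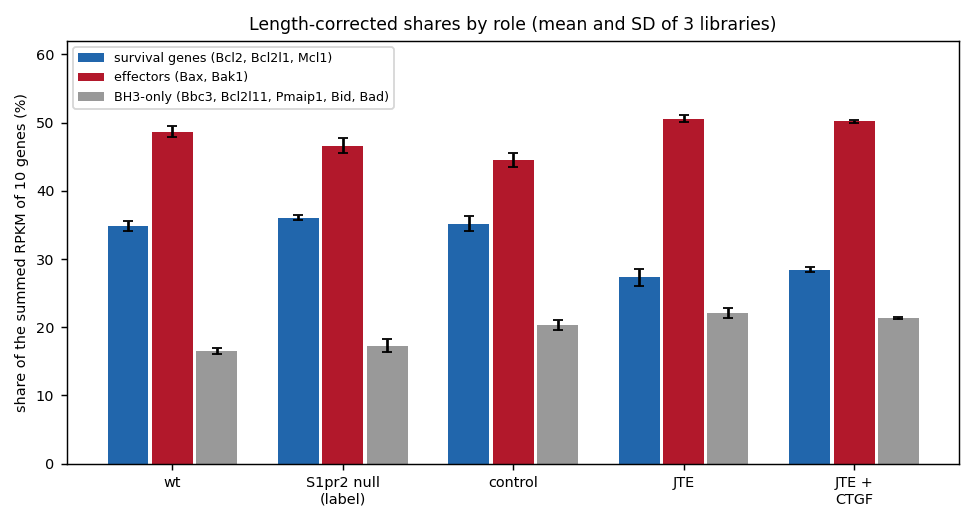
Share of the summed RPKM of the 10 genes (%, vertical axis) held by survival genes, effectors and BH3-only genes in each of the 5 groups. Bars are means of 3 libraries and lines the SD, and the survival genes stand at 35.2% in control and 27.4% in JTE explants.

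Promoter sequence was read from RefSeq (GRCm38.p6, the build of the count table) for 9 of the 10 genes, in 15 windows of the 250 bases before a start site. The element TGATGNAA, bound by ATF4 with CHOP, was searched on both strands and occurred in 0 of these 15 windows, against 3.45% of all 32851 windows. The cyclic AMP response element TGACGTCA also occurred in 0 of the 15, against 1.55% of all. The FOXO element TGTTTAC occurred in 2 of the 15, against 3.17% of all. One decamer of the p53 consensus occurred in 1 of the 15, that of Bax, against 7.13% of all. Most of the 15 windows were richer in G and C than the median of all windows (52.4%), up to 81.6% for 1 window of Bbc3. Of the windows of Bbc3, 2 also overlapped. With so few windows of another composition, 0 matches cannot be told apart from the shares over all windows. The last 3 elements were chosen after the values were seen, and a match describes letters only. Printed here are the windows with a match, with the matched letters in capitals, and that of Mcl1, which held no match and was called in 4 of the 5 comparisons of groups. The windows are chr2:128125788-128126037 (plus strand, FOXO element on the opposite strand from position -227 before the start site), chr7:16310011-16310260 (plus strand, FOXO element from -167, a start site inside the longer gene model), chr7:45466899-45467148 (minus strand, p53 decamer from -201) and chr3:95658471-95658720 (plus strand).
Bcl2l11: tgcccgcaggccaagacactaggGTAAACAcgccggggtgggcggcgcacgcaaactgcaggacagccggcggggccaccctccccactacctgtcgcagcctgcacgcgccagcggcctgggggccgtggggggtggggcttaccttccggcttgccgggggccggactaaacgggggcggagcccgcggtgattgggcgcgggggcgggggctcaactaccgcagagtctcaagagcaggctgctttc
Bbc3: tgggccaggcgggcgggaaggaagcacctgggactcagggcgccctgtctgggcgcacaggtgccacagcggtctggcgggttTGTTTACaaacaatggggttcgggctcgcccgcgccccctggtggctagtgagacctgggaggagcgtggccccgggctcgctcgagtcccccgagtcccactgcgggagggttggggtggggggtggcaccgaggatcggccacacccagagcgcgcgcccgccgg
Bax: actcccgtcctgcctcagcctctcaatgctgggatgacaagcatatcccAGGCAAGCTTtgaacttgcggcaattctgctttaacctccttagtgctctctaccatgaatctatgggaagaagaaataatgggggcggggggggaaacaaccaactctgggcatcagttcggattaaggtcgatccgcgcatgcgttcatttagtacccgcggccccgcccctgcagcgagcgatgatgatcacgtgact
Mcl1: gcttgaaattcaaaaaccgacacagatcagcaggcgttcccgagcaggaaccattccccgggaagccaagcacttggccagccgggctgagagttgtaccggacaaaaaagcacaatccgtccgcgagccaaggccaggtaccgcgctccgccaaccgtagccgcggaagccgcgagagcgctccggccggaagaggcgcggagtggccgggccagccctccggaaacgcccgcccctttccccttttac

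A gene was called at an adjusted p under 0.05 in edgeR's quasi-likelihood test over the 16245 genes that passed the filter on low counts, and all 10 family genes passed that filter. In libraries labelled S1pr2 null against wt, 3 of 10 were called, 2 higher and 1 lower, where 25.8% of all genes tested were (12.6% higher and 13.3% lower). In JTE against control explants 6 of 10 were called, 3 each way (52.2% of all genes, 25.9% higher and 26.2% lower). In JTE + CTGF against JTE 5 of 10 were called, 4 higher and 1 lower (30.4% of all genes, 13.6% higher and 16.8% lower). In JTE + CTGF against control 7 of 10 were called, 3 higher and 4 lower (61.1% of all genes, 28.1% higher and 33.0% lower). In control explants against fresh wt 8 of 10 were called, 6 higher and 2 lower (57.8% of all genes, 28.5% higher and 29.3% lower), and culture, the added time and the use of dorsal buds cannot be told apart there. These shares lie near or somewhat above the background, and the comparisons share libraries, so the counts say little about the family as a whole. By the criterion of the study (adjusted p of at most 0.1, over 100 normalised reads in either group and a fold change under 0.6 or over 1.6) none of the 10 passed in the S1pr2 null comparison (3.00% of all genes), Pmaip1 in JTE against control (8.25%) and in JTE + CTGF against control (11.8%), none in JTE + CTGF against JTE (1.74%), and Bbc3 and Pmaip1 in control against wt (12.1%).

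**Figure D2:**
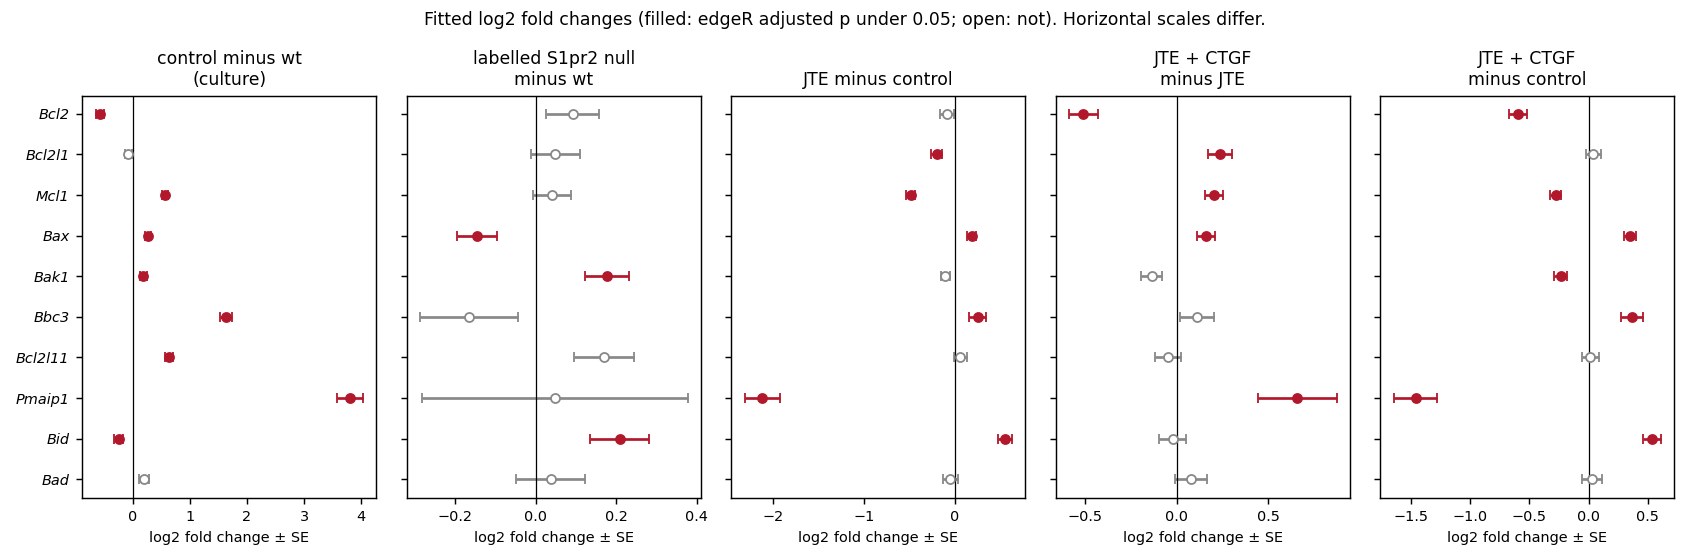
Fitted log2 fold change (horizontal axis, with SE) of the 10 genes in 5 comparisons, each on its own scale. Filled points passed an edgeR adjusted p of 0.05 and open points did not, and Pmaip1 has the widest excursions, from -2.12 in JTE minus control to 3.80 in control minus wt.

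Among the survival genes, Mcl1 was lower in JTE than in control explants, and Bcl2 did not pass the test in that comparison. Mcl1, a short-lived survival protein that captures Bim, Noxa and Bak, had 3510.0, 3509 and 3239 normalised reads in the control explants and 2503, 2480.2 and 2357 in the JTE explants. The groups did not overlap, and the log2 fold change was -0.48 ± 0.05 (SE, edgeR adjusted p = 2.77e-07). The JTE + CTGF explants had 2812, 2739 and 2905, above all JTE and below all control libraries, with a log2 fold change of 0.20 ± 0.05 against JTE (edgeR adjusted p = 0.00334) and -0.28 ± 0.05 against control (edgeR adjusted p = 6.53e-05). Fresh pancreas had 2297, 2358 and 2283 reads in wt and 2411, 2378 and 2345 in the libraries labelled S1pr2 null, below every control explant. Control explants were thus higher than wt by 0.56 ± 0.05 on the log2 scale (edgeR adjusted p = 2.49e-08), while the libraries labelled S1pr2 null differed from wt by 0.04 ± 0.05, with a 95% interval of -0.06 to 0.14.

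Bcl2l1, whose long form Bcl-xL restrains Bax and Bak, moved less. The control libraries had 884, 731 and 754 normalised reads and the JTE libraries 685, 695 and 685. Control 1 stood above the other 2 controls, and all 3 JTE libraries lay below the controls, with a log2 fold change of -0.20 ± 0.06 (edgeR adjusted p = 0.0136). Without control 1 the log2 fold change was -0.11 with an edgeR adjusted p of 0.108, so that call rests on this library. It was also lost when only the libraries of this comparison were fitted. With CTGF the libraries had 828, 826 and 779, each above every JTE library (0.24 ± 0.06 on the log2 scale, edgeR adjusted p = 0.00889) and within the range of the controls (0.04 ± 0.06, 95% interval -0.09 to 0.17). Neither the null label (0.05 ± 0.06, 95% interval -0.08 to 0.18) nor the comparison of control explants with wt (-0.07 ± 0.06, 95% interval -0.20 to 0.05) gave a call. The latter was called with scaling by library size alone (-0.22, edgeR adjusted p = 0.00542) and without control 1 (-0.16, edgeR adjusted p = 0.0163). The counts do not separate the long and short splice forms, which act in opposite ways.

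Bcl2, the founder of the family, was highest in fresh tissue. It had 530.2, 494 and 516 normalised reads in wt, 533, 547 and 562 in the libraries labelled S1pr2 null, and 310.0, 351 and 369.7 in control explants. All control explants lay below all fresh libraries, and control against wt gave -0.58 ± 0.07 on the log2 scale (edgeR adjusted p = 1.96e-06). JTE explants had 339, 307 and 326 reads, overlapping the controls (-0.08 ± 0.07, 95% interval -0.24 to 0.07). The lowest values were those of JTE + CTGF, at 240.1, 227 and 217, below every other library, with -0.51 ± 0.08 against JTE (edgeR adjusted p = 0.000114) and -0.59 ± 0.08 against control (edgeR adjusted p = 4.5e-06). Its exons measure 7191 bases in the count table.

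The direction of change on adding CTGF went with transcript length across all genes, and the family is spread over the length classes. Of the 2258 tested genes longer than 7000 bases, 53.1% were called lower in JTE + CTGF than in JTE, with a median log2 fold change of -0.28. Bcl2 belongs to that class, as does Bcl2l11 with 8029 bases, which was not called. The 1489 genes of up to 1000 bases had a median of 0.15 and 22.0% were called higher, and Bax (869 bases, log2 fold change 0.16) lies in that class. Mcl1 (3485 bases, 0.20) and Pmaip1 (2646 bases, 0.66) belong to the genes of 2000 to 4000 bases, with a median of 0.06. Bcl2l1 (4586 bases, 0.24) was higher in a class, 4000 to 7000 bases, whose median was -0.08 and of which 20.8% were called lower. In JTE + CTGF against control, genes over 7000 bases had a median of -0.23, with 51.4% called lower and 15.8% higher. Under the null label that class had a median of 0.09, with 25.5% called higher and 8.68% lower. Genes of up to 1000 bases had a median of -0.08 there, with 9.07% called lower and 4.3% higher. In JTE against control, genes over 7000 bases had a median of 0.06, with 33.4% called higher and 22.3% lower. The part of transcript length in the calls of single genes was not tested in any comparison.

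**Figure D3:**
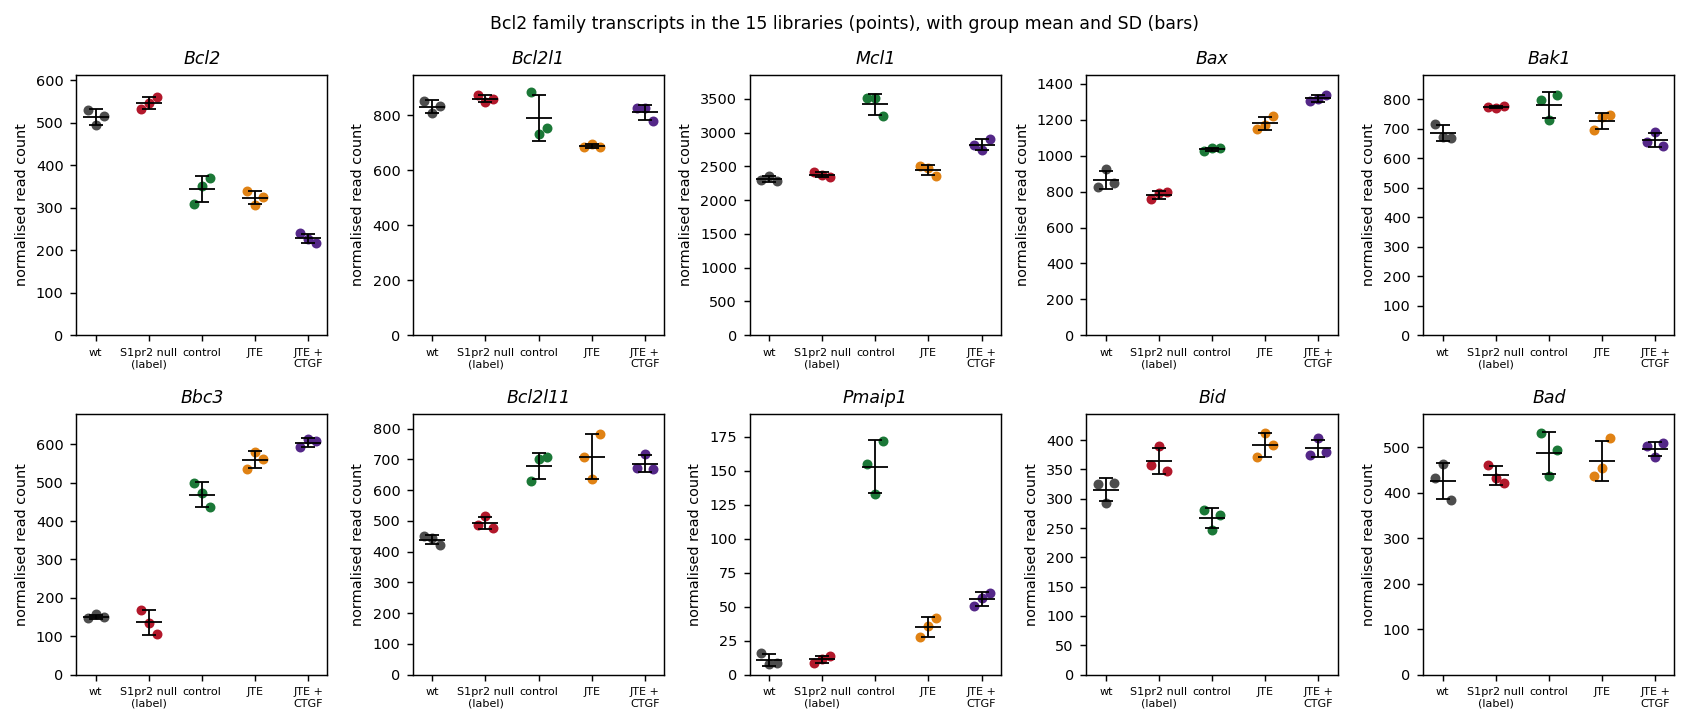
Normalised read counts (vertical axis, each gene on its own scale from 0) of the 10 genes in the 15 libraries. Points are libraries, horizontal lines group means and vertical lines the SD of 3 libraries; the 3 control explants of Pmaip1 (155, 133 and 172) lie above all other libraries.

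Of the effectors, Bax was called in every comparison and Bak1 changed little. Bax, whose protein moves from the cytosol to mitochondria on activation, had 827, 923 and 846 normalised reads in wt and 1028, 1043 and 1040.3 in control explants. It had 1151, 1169 and 1222 in JTE and 1305, 1316 and 1341 in JTE + CTGF explants. The 4 groups were stacked without overlap in that order, with log2 steps of 0.26 ± 0.05 (edgeR adjusted p = 0.000255), 0.19 ± 0.05 (edgeR adjusted p = 0.004) and 0.16 ± 0.05 (edgeR adjusted p = 0.0193). JTE + CTGF exceeded control by 0.35 ± 0.05 (edgeR adjusted p = 1.13e-05). The step from wt to control lost its call when counts were scaled by library size alone, at 0.12, and the last step lost its call under that scaling and without JTE 1, JTE 2 or JTE + CTGF 3. The libraries labelled S1pr2 null had 757, 794 and 796, below all wt libraries (-0.15 ± 0.05, edgeR adjusted p = 0.0415).

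Bak1, the effector that sits in the mitochondrial membrane from the start, had 715, 672 and 667 normalised reads in wt and 774, 771 and 778 in the libraries labelled S1pr2 null. All of the latter were higher, by 0.18 ± 0.05 on the log2 scale (edgeR adjusted p = 0.0229). Control explants had 796, 729.9 and 813, above all wt libraries (0.19 ± 0.05, edgeR adjusted p = 0.00752), a call lost under scaling by library size alone, where the value was 0.04. JTE explants had 695, 740.3 and 745 and overlapped the controls (-0.10 ± 0.05, 95% interval -0.22 to 0.01), called at -0.15 without control 2 (edgeR adjusted p = 0.0461). JTE + CTGF explants had 656, 688 and 641, below all controls (-0.24 ± 0.06, edgeR adjusted p = 0.00147). A share of 14.8% of the exon bases of Bak1 lies opposite those of Ggnbp1, and whether counting used strand is not given in the sources used here.

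Of the BH3-only genes, Pmaip1 and Bbc3 had the widest ranges. Pmaip1, whose product Noxa binds Mcl-1 and speeds its removal, had 16.2, 7.66 and 8.45 normalised reads in wt and 8.83, 11.1 and 13.5 in the libraries labelled S1pr2 null. It had 155, 133 and 172 in control, 27.5, 35.7 and 41.9 in JTE and 50.3, 56.1 and 60.4 in JTE + CTGF explants. No explant library overlapped another explant group or the fresh tissue. It was 13.96-fold higher in control explants than in wt (3.80 ± 0.23 on the log2 scale, edgeR adjusted p = 5.6e-10), and JTE explants were 4.34-fold lower than controls (-2.12 ± 0.19, edgeR adjusted p = 1.41e-07). With CTGF it was higher than in JTE by 0.66 ± 0.21 (edgeR adjusted p = 0.0285) and still lower than in controls (-1.46 ± 0.18, edgeR adjusted p = 3.37e-06). The CTGF call was lost without JTE 1, JTE 2, JTE + CTGF 2 or JTE + CTGF 3, where values ran from 0.51 to 0.85 over all libraries left out in turn. At this depth the null label gave an interval of -0.65 to 0.74 on the log2 scale.

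Markers of leukocytes (Ptprc, Csf1r, Cd68, Lyz2, Adgre1, Tyrobp) were, like Pmaip1 and Mcl1, higher in control explants than in wt or JTE explants, while their ranges in JTE and JTE + CTGF explants overlapped. Their summed level was 98.5 to 105 CPM in wt, 104 to 109 in the libraries labelled S1pr2 null, 306 to 358 in control, 145 to 189.8 in JTE and 138 to 192 in JTE + CTGF explants. In JTE against control 6 of 6 were called lower, in control against wt 5 of 6 higher, and none was at or under 3 reads in any group. The pattern was not particular to leukocytes. Summed epithelial markers (Epcam, Cdh1, Krt8, Krt18, Cldn6) were 1806 to 1965 in wt, 2532 to 2871 in control and 1601 to 2008 in JTE explants. Summed endocrine markers were 1679 to 1919, 4176 to 4738 and 637 to 924, and neural markers 68.2 to 74.1, 82.5 to 93.9 and 68.3 to 77.0. With JTE 4 of 5 epithelial and all 6 endocrine markers were called lower, and of 5 neural markers 1 lower and 1 higher. Summed mesenchymal, endothelial, erythroid, acinar and progenitor markers did not show the pattern. The part of these cells in the levels of Pmaip1 and Mcl1 was not tested.

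Bbc3, whose product Puma binds all survival proteins and is a target of p53 and FOXO factors, had 147, 157 and 149 normalised reads in wt and 499, 473 and 435 in control explants. Every control explant exceeded every fresh library, and the gene was 3.10-fold higher (1.63 ± 0.11 on the log2 scale, edgeR adjusted p = 1.52e-09). JTE explants had 536, 580.0 and 562, all above the controls (0.25 ± 0.09, edgeR adjusted p = 0.0316). That call was lost without control 2, control 3, JTE 2 or JTE 3, with values of 0.20 to 0.30 over all libraries left out, and with DESeq2. JTE + CTGF explants had 592, 613 and 609, again above all controls (0.37 ± 0.09, edgeR adjusted p = 0.003) and not called against JTE (0.11 ± 0.09, 95% interval -0.09 to 0.31). The libraries labelled S1pr2 null were spread widely, at 168, 134 and 105, on both sides of wt, with a 95% interval of -0.42 to 0.09 for the log2 difference. Without S1pr2 null 1 that difference went from -0.16 to -0.34 and was called (edgeR adjusted p = 0.0331).

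Bcl2l11, which encodes Bim, an activator of Bax and Bak that follows withdrawal of growth factors, had 449, 443 and 421 normalised reads in wt and 629.6, 699.7 and 708 in control explants. The groups did not overlap, and control explants were higher by 0.63 ± 0.07 on the log2 scale (edgeR adjusted p = 1.3e-06). It had 707, 636 and 782 in JTE and 672, 717 and 668 in JTE + CTGF explants, and both overlapped the controls. The 95% intervals were -0.09 to 0.21 for JTE and -0.14 to 0.17 for JTE + CTGF against control. The libraries labelled S1pr2 null, at 488, 514 and 476, were all above wt but not called (0.17 ± 0.07, edgeR adjusted p = 0.106), though called when only the libraries of this comparison were fitted (0.18, edgeR adjusted p = 0.0431). The FOXO letters printed for Bcl2l11 and Bbc3 were not tested against these values.

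Bid, which caspase-8 cleaves to link death receptors to mitochondria, had its lowest libraries in the control explants. It had 326, 293 and 328 normalised reads in wt and 280.3, 247 and 272 in control explants (-0.24 ± 0.08, edgeR adjusted p = 0.0114), a call lost without control 2. JTE explants had 371, 411 and 392 and JTE + CTGF explants 375, 403 and 380.2. All 6 lay above all controls, with log2 fold changes of 0.56 ± 0.08 (edgeR adjusted p = 1.13e-05) and 0.54 ± 0.08 (edgeR adjusted p = 1.29e-05), 2 comparisons that share the control libraries. CTGF made no called difference (-0.02 ± 0.07, 95% interval -0.18 to 0.14). The libraries labelled S1pr2 null, at 357, 389.7 and 347, were above all wt libraries (0.21 ± 0.07, edgeR adjusted p = 0.0457). Of its exon bases, 17.7% lie opposite those of Bcl2l13, whose log2 fold change was 0.21 ± 0.05 in JTE against control.

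Bad, a BH3-only protein switched off by phosphorylation under growth factor signals, was called in no comparison of the full set of libraries. Its libraries ranged from 384 to 463 normalised reads in wt, 421 to 460.2 under the null label, 437 to 529.8 in control, 436 to 519.9 in JTE and 479 to 508 in JTE + CTGF explants, and each group overlapped its reference. The 95% interval of the log2 difference was -0.23 to 0.13 for JTE against control and -0.14 to 0.22 for the null label. Control against wt gave 0.19 ± 0.09 with an interval of 0.01 to 0.37 (edgeR adjusted p = 0.066), and it was called with the size factors of DESeq2, with no filter on low counts and without wt 2, control 2 or JTE 3, at values of 0.21 to 0.26. A share of 25.8% of its exon bases lies opposite those of Gpr137.

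The 3 calls under the S1pr2 null label, Bax lower and Bak1 and Bid higher, were all under 0.25 on the log2 scale. Each was lost in 5 to 7 of the 15 fits that left out 1 library, including wt 2, wt 3, S1pr2 null 1 and S1pr2 null 2 for all 3 genes, and all 3 were also lost when the filter on low counts was dropped. Endocrine markers were 803 to 955 CPM under that label and 1679 to 1919 in wt, and acinar markers 1520.2 to 1642 and 3640.4 to 5217.

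The response to JTE013 and the difference under the null label were set against each other by an interaction term, which uses no shared libraries. It was called for 7 of 10 genes (42.9% of all genes), 3 higher (21.5%) and 4 lower (21.5%). Mcl1 differed by -0.52 ± 0.07 on the log2 scale (edgeR adjusted p = 9.77e-06) and Pmaip1 by -2.16 ± 0.39 (edgeR adjusted p = 0.000286), both lower with the antagonist. Under the label Mcl1 was near 0, with a 95% interval of -0.06 to 0.14. For Pmaip1 that interval was -0.65 to 0.74, and its 8 to 18 reads a library in fresh tissue leave little room for a fall. Bax differed by 0.33 ± 0.07 (edgeR adjusted p = 0.00111), higher with the antagonist and lower under the label. Bak1 had -0.28 ± 0.08 (edgeR adjusted p = 0.0078), Bid 0.35 ± 0.11 (edgeR adjusted p = 0.0134), Bcl2l1 -0.25 ± 0.09 (edgeR adjusted p = 0.0302) and Bbc3 0.42 ± 0.15 (edgeR adjusted p = 0.0365). Bcl2, Bcl2l11 and Bad were not called, with 95% intervals of -0.38 to 0.03, -0.32 to 0.11 and -0.34 to 0.17. Fresh tissue was set against cultured buds in this term, so a part of culture and a difference between the antagonist and the genotype label cannot be told apart.

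Across the 5 groups, the range of the mean log2 CPM was 3.66 for Pmaip1, wider than for 97.6% of genes tested. Bbc3 spanned 2.17, wider than 88.9%, and Bcl2 1.26, wider than 71.4%. Bad at 0.22 and Bak1 at 0.24 had ranges wider than only 3.77% and 4.58% of genes. The genes most like Pmaip1 over the 15 libraries, by the root mean square difference of centred log2 values, were Cp (0.34) and Plaur (0.41). Those most like Bbc3 were Hspb8 (0.17) and Rps6kl1 (0.18), and those most like Bcl2 were Rbl1 (0.08) and Nup155 (0.09). With 5 groups behind the 15 libraries, such likeness describes the group pattern only.

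Of 16 other Bcl2 family genes, 10 were tested, and in JTE against control 3 were called higher and 3 lower, with a median log2 fold change of -0.16 against 0.00 over all genes tested. Hrk, a BH3-only gene, had 67.7 ± 5.42 normalised reads in control and 194 ± 38.1 in JTE explants (1.52 ± 0.18 on the log2 scale, edgeR adjusted p = 2.56e-06), and was also higher in culture than in wt (2.40 ± 0.26). Hrk and Pmaip1, both BH3-only, were thus called in opposite directions with JTE. Bok, an effector-like member, was lower with JTE (-1.36 ± 0.14, edgeR adjusted p = 7.84e-07) and under the null label (-0.61 ± 0.13, edgeR adjusted p = 0.00295), as was Bcl2l14 (-1.57 ± 0.20 and -0.45 ± 0.16). Bcl2a1b, Bcl2a1c, Bcl2l10 and Bcl2l15 were too low to test, with at most 8 reads in a library, and Bcl2a1a and Bcl2a1d were not analysed here.

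Among 14 genes of the apoptosome and the caspases, 2 were called higher and 5 lower in JTE against control (median -0.17), and 3 higher and 1 lower under the null label. Casp8, the protease that cleaves Bid, changed by -0.77 ± 0.07 on the log2 scale with JTE (edgeR adjusted p = 1.16e-07), in the same explants in which Bid rose, and the executioner Casp6 changed by -0.51 ± 0.06 (edgeR adjusted p = 3.6e-06). Htra2, a mitochondrial protease, was lower under the null label (-0.53 ± 0.09, edgeR adjusted p = 3e-04). Of 5 inhibitor of apoptosis genes, 2 were called lower and none higher in JTE explants (median -0.15). Birc3 went from 113 ± 12.5 normalised reads in wt to 331 ± 20.5 in control and 131 ± 6.63 in JTE explants (-1.33 ± 0.10, edgeR adjusted p = 2.32e-08), and Birc5, a gene of dividing cells, changed by -0.72 ± 0.09 (edgeR adjusted p = 2.41e-06). Birc6 was called higher under the null label (0.24 ± 0.06, edgeR adjusted p = 0.00721).

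Of 8 death receptor genes tested, 2 were called higher and 2 lower in JTE explants (median -0.02), and 1 each way under the null label. Tnfsf10, the ligand TRAIL, had 68.7 ± 19.3 normalised reads in wt, 217 ± 51.4 in control and 38.8 ± 8.00 in JTE explants (-2.48 ± 0.23, edgeR adjusted p = 1.58e-07). Its receptor Tnfrsf10b rose with JTE (0.64 ± 0.09, edgeR adjusted p = 2.57e-05) and under the null label (0.94 ± 0.10, edgeR adjusted p = 3.83e-06). Cflar, which blocks caspase-8, was lower with JTE (-0.19 ± 0.06, edgeR adjusted p = 0.021), and Fasl was not analysed here.

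Of 4 genes that set the turnover of Mcl-1 protein, 1 was called higher and 1 lower in JTE explants. Huwe1, a ubiquitin ligase of Mcl-1, was higher with JTE (0.24 ± 0.07, edgeR adjusted p = 0.00715) and under the null label (0.22 ± 0.07, edgeR adjusted p = 0.0195), and lower with CTGF than with JTE alone (-0.97 ± 0.07, edgeR adjusted p = 9.26e-08), with 23509 exon bases the longest of them. Btrc was lower with JTE (-0.16 ± 0.06, edgeR adjusted p = 0.0433) and higher under the null label (0.19 ± 0.06, edgeR adjusted p = 0.0331).

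Of 8 p53 targets outside the family, 2 were called higher and 3 lower in JTE explants (median -0.02), 5 higher and 1 lower in control against wt (median 0.27), and 3 lower and none higher under the null label (median -0.16). Cdkn1a, the cell cycle inhibitor p21, had 0.21 ± 0.08 with JTE (edgeR adjusted p = 0.0349) with overlapping groups, and was lower under the null label (-0.47 ± 0.08, edgeR adjusted p = 0.000404) without overlap. Phlda3 had -0.42 ± 0.08 (edgeR adjusted p = 0.000416), and Eda2r was lower with JTE (-0.84 ± 0.25) and under the null label (-1.17 ± 0.32). The p53 targets Bax, Bbc3 and Pmaip1 were likewise called in both directions in JTE explants.

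ATF4 and CHOP are factors of the integrated stress response that also act on Bbc3, Bcl2l11 and Pmaip1. A list of 9 genes held Atf4 and Ddit3, which encode these factors, and genes driven by them. Of these 9 genes, 8 were called higher and none lower in JTE against control. Their median log2 fold change was 1.67 against 0.00 over all genes. In control against wt 9 of 9 were called higher (median 1.11), and with CTGF against JTE edgeR called 0 of 9, with 5 of 9 at an unadjusted p under 0.05. Ddit3, which encodes CHOP, went from 238 ± 15.5 normalised reads in control to 2642 ± 591 in JTE explants (3.47 ± 0.14, edgeR adjusted p = 1.38e-11). Trib3 changed by 4.89 ± 0.15 (edgeR adjusted p = 5.38e-13) and Atf5 by 2.94 ± 0.07 (edgeR adjusted p = 5.03e-14). Beside these, Bbc3 changed by 0.25 and Pmaip1 by -2.12 in JTE against control, and Bcl2l11 by 0.06 without a call. Under the null label 3 were called lower and none higher (median -0.12).

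**Figure D4:**
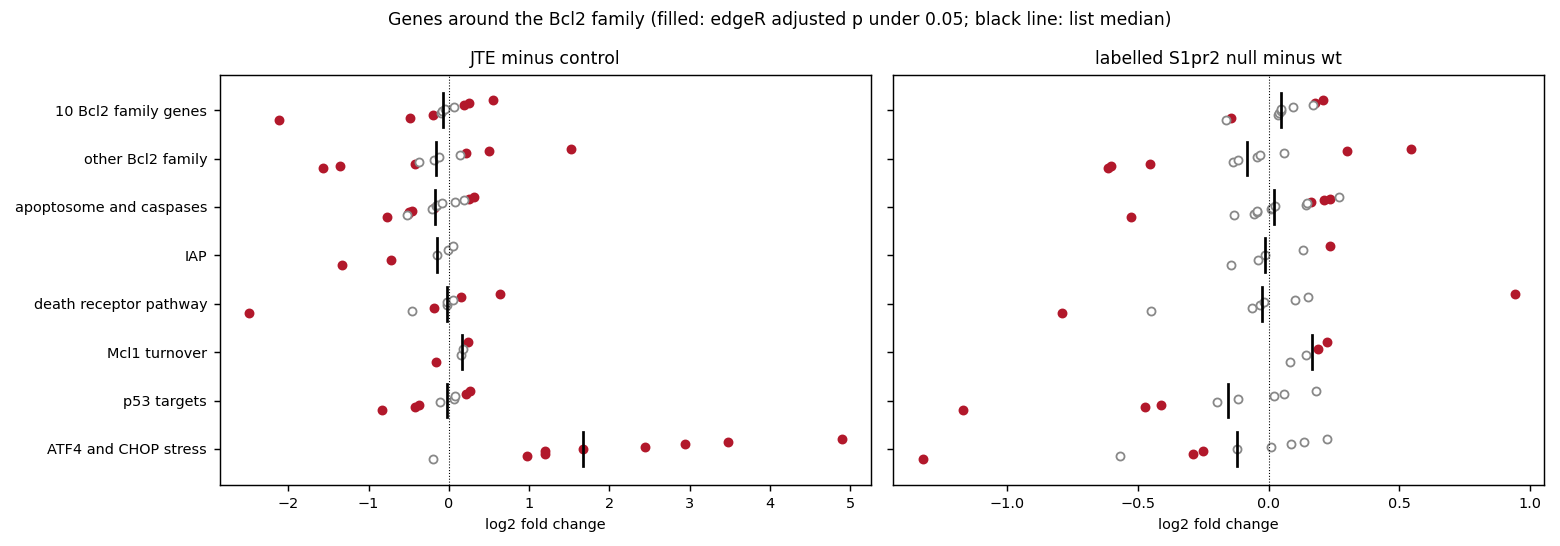
Log2 fold changes (horizontal axis) of the 10 genes and of 7 lists of related genes in JTE minus control and in S1pr2 null minus wt, on separate scales. Points are genes, filled where the edgeR adjusted p is under 0.05, the black line is the list median, and the ATF4 and CHOP list lies to the right in the first panel with a median of 1.67.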

How the data were processed

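Single-end reads of strand-specific poly(A) libraries were aligned to mm10 with GSNAP and uniquely aligned reads were counted per Ensembl gene with featureCounts 1.4.6, per the labels and the methods of the study; the authors deposited raw read counts, and whether counting used strand is not given in the sources used here. Symbols were matched for 24750 of 25292 identifiers (97.9%) through GENCODE M21. Each of the 15 libraries was a pool of up to 3 pancreata, with 3 libraries per group and 11402804 to 13828737 reads each, so a gene with few reads such as Pmaip1 in fresh tissue is measured with less precision. The members and lists were chosen with earlier results of these data known.

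Counts were scaled by TMM, filtered with filterByExpr (16245 genes kept) and fitted with edgeR 4.0.16 (R 4.3.3, quasi-likelihood test, 1 coefficient per group, Benjamini-Hochberg adjustment over all genes, call under 0.05; biological coefficient of variation 7.30%). Intervals are 95%. Normalised counts are TMM-scaled counts per library of average size, and RPKM uses the exon length in the count table. DESeq2 1.42.0, other scalings, no filter, only the libraries compared, a replicate block and leaving out each library were alternatives. On simulated counts with 200 changed genes, 198 were called, as were 12 unchanged genes, of 15946 tested. All 10 members are named. Of each related list, the genes named are those called in JTE against control or S1pr2 null against wt with the 3 largest log2 fold changes in either, and genes not tested; Bcl2l13 was named for its overlap with Bid after values were seen. Replicates differed by more than sampling noise (chi-square per gene 2.34 to 23.2). The highest values, 17.2 and 23.2, were those of JTE 3 with JTE 1 and with JTE 2, against 3.01 for JTE 1 with JTE 2. Whether replicate numbers pair samples is not given in the sources used here. Of 30 same-numbered pairs, 4 had deviations correlated over 0.1, the highest at 0.419 for control 3 with JTE 3, which does not settle it. The Pmaip1 promoter was not in the table used, and protein sequences were not used here. Text and plots were made with Python 3.11.15, pandas 2.3.3 and matplotlib 3.10.9.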

Additional observations from a re-analysis of the deposited data

Results flagged for a closer look

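Of the 10 genes, 7 stood out because the response to JTE013 differed from the difference under the S1pr2 null label by the interaction term, of which edgeR called 42.9% of all genes. The log2 differences of the responses, JTE minus control less S1pr2 null minus wt, were -0.25 for Bcl2l1, -0.52 for Mcl1, 0.33 for Bax, -0.28 for Bak1, 0.42 for Bbc3, -2.16 for Pmaip1 and 0.35 for Bid. For Bax the 2 responses had opposite signs (0.19 and -0.15), with all 3 libraries of each group on one side of their reference. Bid rose in both (0.56 and 0.21), to a different extent. The calls of Bcl2l1 and Bbc3 were lost when single libraries were dropped, for 6 and 7 of the 15, with values from -0.30 to -0.16 and from 0.26 to 0.60. The null label goes with more S1pr2 reads than wt, counts that do not check the receptor protein, and the part of culture in these differences was not tested.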

How the results depend on the processing

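Of 1260 alternative values for the 10 genes (21 alternatives for each of 60 results), 1170 kept their direction and their side of the threshold, 61 kept the direction and lost the call, 10 gained one and 19 changed sign. The number of genes of the family called under the S1pr2 null label was 3, and it was 1 with scaling by library size alone, 0 with no filter on low counts, 1 with DESeq2, and 0 to 3 when 1 library was left out. For JTE + CTGF against JTE it was 5, and 3 to 5 when 1 library was left out (3 without JTE 1, JTE 2 or JTE + CTGF 3). Results that changed sign had no call in the first place. With scaling by library size alone, Bcl2l1 (-0.0036), Bcl2l11 (-0.031) and Bad (-0.015) were below 0 in JTE + CTGF against control, and with no filter Bid was at 0.0080 in JTE + CTGF against JTE. With 1 library left out, log2 fold changes ran from -0.14 to 0.47 for Pmaip1 and -0.032 to 0.10 for Bad under the null label, from -0.020 to 0.13 for Bcl2l11 and -0.13 to 0.017 for Bad in JTE against control, from -0.12 to 0.067 for Bcl2l11 and -0.056 to 0.017 for Bid in JTE + CTGF against JTE, and from -0.014 to 0.13 for Bcl2l1, -0.038 to 0.048 for Bcl2l11 and -0.043 to 0.094 for Bad in JTE + CTGF against control. The cause of these shifts was not tested.

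Replicate numbers were shared between groups, and whether they pair samples is not given in the sources used here. With a replicate block, 2 of the 10 genes were called under the null label (4060 of the 16245 genes tested), 6 in JTE against control (8338), 5 in JTE + CTGF against JTE (4776), 7 in JTE + CTGF against control (9816), 8 in control against wt (9256) and 7 in the interaction (6860). The depth leaves Pmaip1 in fresh tissue, at 8 to 18 reads a library, the least precise of the 10.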
